A study of Homo sapiens with 8 samples.

Results

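The strands miR-144-3p and miR-144-5p, the opposite arms of 1 microRNA hairpin, were compared in SK-MES-1 cells, an established line of lung squamous cell carcinoma. The contrast used 2 of the 8 arrays of the series, 1 per strand. On each array, RNA of cells transfected with 1 strand by Lipofectamine RNAiMAX was labelled with Cy5, and RNA of mock cells, which the labels give as not transfected, was labelled with Cy3. The strand difference of a probe is its log2 ratio of Cy5 over Cy3 on the miR-144-3p array minus that on the miR-144-5p array, so that positive values are higher after miR-144-3p. Of 58201 probes that are not controls, 32842 had a Cy5 signal well above background on at least 1 of the 2 arrays and were kept. They stand for 25102 of the 43317 gene names on the array. There was 1 array per strand and no control oligonucleotide on either array, so that no test between the strands was possible, a non-specific response to transfection is part of both ratios, and all values below are descriptions of these 2 arrays. No dyes were swapped, and a dye effect common to both arrays cancels in the difference.

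A microRNA hairpin is cut into a duplex, of which 1 strand is usually loaded into an Argonaute protein while the other is degraded. The loaded strand pairs through its seed, bases 2 to 8, with sites in messenger RNAs, whose levels and translation it lowers. Both arms of miR-144 have been described as antitumour strands in several cancers. The mature sequences from RefSeq (GRCh38.p14) are shown because the comparison turns on their different seeds, here in capitals. The miR-144-3p strand lies at chr17:28861548-28861567 and miR-144-5p at chr17:28861583-28861604, both on the minus strand.
miR-144-3p: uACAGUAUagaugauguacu
miR-144-5p: gGAUAUCAucauauacuguaag
The longest run of bases that the seeds share is 3 bases, and 0 other mature microRNAs of the RefSeq table have either seed.

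The quality of the arrays was alike apart from 1 area. The Cy5 signal was well above background for 31790 probes after miR-144-3p and 31310 after miR-144-5p, and no spot was saturated on either array. On the miR-144-3p array, 160 spots had a local Cy5 background over 1.5 times the median of 17, reaching 176, against 0 spots on the miR-144-5p array and 0 in Cy3. They lay together in rows 275 to 316 and columns 160 to 164, at the edge of the array. Of the squamous markers, 10 of 18 were well above background in the mock channel of each array. Among them TP63, SOX2, KRT14 and KRT17 were dim, with mock intensities of 35.7, 46.1, 40.5 and 38.5 on the miR-144-3p array. The median local Cy3 background there was 22. S100A2, SFN and PERP were bright there, at 5119, 4696 and 3861. KRT5, KRT6A, KRT6B, DSG3 and DSC3 were not well above background. The simple-epithelium keratin KRT7 had the high mock intensity of 9817 on the miR-144-3p array, and the same count was 2 of 8 for lung adenocarcinoma markers, 6 of 10 for fibroblast, 1 of 7 for endothelial and 4 of 6 for leukocyte markers. The label of squamous cells thus rested on part of its marker list.

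Few genes separated the strands. Among the kept probes, 1061 (3.23%) were lower by 1 or more (2-fold) after miR-144-3p and 1219 (3.71%) were higher. Most of these were dim: in the mock channel alone, where the same untransfected line was measured on both arrays, 848 of the same probes were lower and 897 higher by that amount after centring on the median. The comparison was therefore narrowed to the 25631 probes with both dyes well above background on both arrays. There the strand difference had an SD of 0.307 across probes, the difference of the Cy5 signals alone 0.267, and the mock difference 0.189. Of these probes, 96 were lower and 140 higher by 1 or more, against 14 lower and 15 higher in the mock channel. The strand difference carries the error of 4 channels and the mock difference that of 2, and the labels do not say whether the mock RNA on the arrays was the same extract.

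The mock channel also gave a yardstick by brightness. In the dimmest of 5 equal bins of processed signal, 99% of probes had a mock difference within 0.892, and in the brightest within 0.182. Beyond the limit of their own bin lay the strand differences of 5.19% of probes in the dimmest bin and 26.0% in the brightest. The limit of the mock channel is that of 2 channels that may hold 1 extract, whereas the strand difference sets separate transfected cultures against each other, so that values beyond it are not thereby an effect of the strand. Spots of 1 probe on 1 array varied less still, with a median SD of the log2 ratio of 0.0394 after miR-144-3p and 0.0389 after miR-144-5p over 287 probes with at least 5 measured spots.

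**Figure D1:**
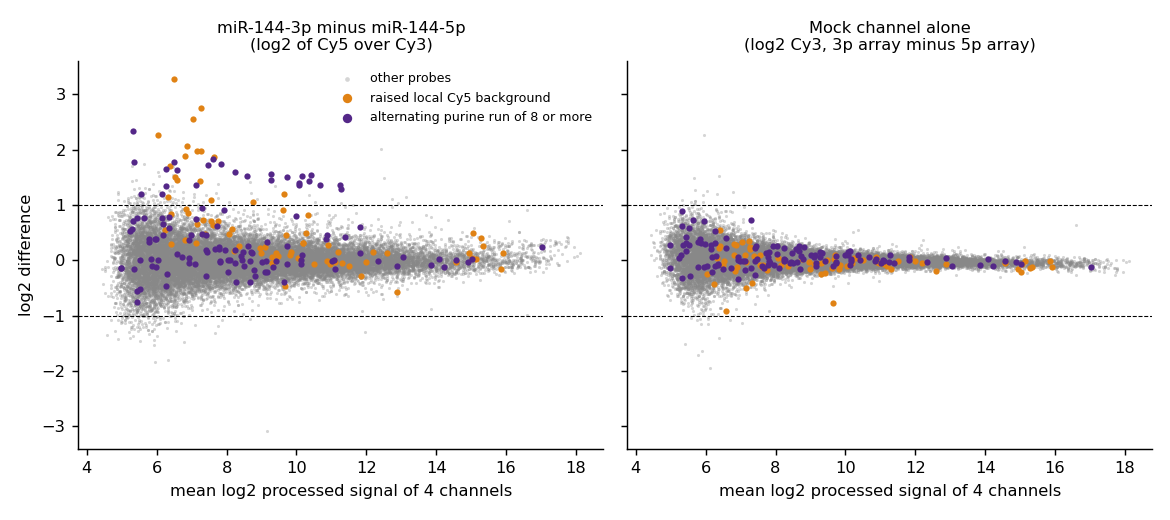
Strand difference (left) and mock difference (right), both in log2, against the mean log2 processed signal of the 4 channels, for the 25631 probes measured in all 4; dashed lines mark a 2-fold difference. The cloud on the left is wider than that on the right at every brightness, EGR1 is the point at -3.09, and coloured points mark probes with a raised local Cy5 background or an alternating purine run.

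The strands of miR-130 in the pancreatic line PANC1 gave the only other such pair in the series. There the strand difference had an SD of 0.706 over 23452 probes measured in 4 channels, with 1309 probes lower and 1894 higher by 1 or more, although the SD of the mock difference, 0.182, was close to that of SK-MES-1. The pair differs in both microRNA and cell line, which cannot be told apart. By the rule used below for separating probes, 926 were lower and 1748 higher in PANC1, against 12 and 76 in SK-MES-1.

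A probe was called separating where all 4 channels were well above background, the strand difference was 1 or more, and the Cy5 signals alone differed by 1 or more in the same direction after centring. This held for 12 probes that were higher after miR-144-5p (0.0468% of those measured) and 76 that were higher after miR-144-3p (0.297%). None of the 12, but 15 of the 76, lay in the area of raised background, and another 24 carried an alternating run of G and A of at least 8 bases. Both kinds of probe are described after the genes, and 37 separating probes higher after miR-144-3p were left without them.

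EGR1, an immediate early transcription factor that mitogens and stress induce within minutes, differed most. Its mock intensity was 90.4 on the miR-144-3p array and 96.0 on the miR-144-5p array, whereas its Cy5 intensity was 101 and 733. These intensities are spot means before background and dye correction. After the correction of the scanner software the log2 ratio to mock was -0.53 after miR-144-3p and 2.55 after miR-144-5p, a strand difference of -3.09 or 8.49-fold. The mock difference was -0.04, and 99% of probes of that brightness had one within 0.33. EGR1 was thus above mock after one strand and slightly below it after the other. Its single probe lies at chr5:137804891-137804950 (hg19), and its log2 ratio on the 6 arrays of the other cell lines ranged from -0.58 to 3.15.

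CTNNAL1, which codes for the catenin-related protein alpha-catulin, was the brightest gene of this group. One probe had Cy5 intensities of 979 after miR-144-3p and 2361 after miR-144-5p over mock intensities of 853 and 902, a strand difference of -1.30. This probe lies at chr9:111754914-111754973 (hg19). The other probe of the gene, at chr9:111705005-111705064 and brighter, had a strand difference of 0.05, so that the probes of CTNNAL1 disagreed.

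CCL5, a chemokine that attracts T cells and monocytes, had Cy5 intensities of 43.8 after miR-144-3p and 87.9 after miR-144-5p over mock intensities of 34.2 and 31.8. Its strand difference was -1.80 and its mock difference 0.37, with 99% of such dim probes within 0.89 in mock. Its log2 ratio to mock was 2.10 after miR-144-5p and 0.30 after miR-144-3p.

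The other named genes higher after miR-144-5p were dim, with mock intensities between 28.1 and 47.8. MARK2, a kinase of microtubule-associated proteins, had a strand difference of -1.32, and its brighter second probe one of -0.17. The chemokine gene CXCL12 had -1.29 on 1 probe and 0.52 on another kept probe. The RNA-binding protein gene RBMS3 had -1.26, TMEM98 -1.23, the membrane-repair gene DYSF -1.17, the forkhead factor gene FOXS1 -1.15, and MPRIP -1.02 on 1 of its 5 probes and 0.06 on another. Apart from EGR1 and CTNNAL1, no separating probe of these 10 genes had an intensity above 140.1 in any channel.

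SNORA34, a small nucleolar RNA that RefSeq now calls SNORA2C, was the clearest gene higher after miR-144-3p. Such H/ACA RNAs guide the conversion of uridine to pseudouridine in ribosomal RNA. Its Cy5 intensity was 2458 after miR-144-3p and 604 after miR-144-5p over mock intensities of 1243 and 1349. The strand difference was 2.02, or 4.05-fold, with a mock difference of -0.01, on a probe at chr12:49048165-49048224 (hg19). The log2 ratio to mock was 0.14 after miR-144-3p and -1.88 after miR-144-5p, so that SNORA34 stood near its mock level on one array and low on the other.

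SNORA34 belongs to a group of small nucleolar RNAs that RefSeq places within the span of KANSL2, a gene of a histone acetyltransferase complex. SNORA2B of the same group had a strand difference of 1.35, with Cy5 intensities of 225 and 96.9 over mock intensities of 237 and 253, and was below mock on both arrays by -0.90 and -2.25. SNORA2A, by contrast, had 0.03, and -0.98 on a second kept probe whose mock signal was at background on both arrays. The host KANSL2 had 0.11 on its bright probe and 0.50 on a dim one. By their brightest probes, the difference was thus past 2-fold for 2 of the 3 small RNAs and for neither probe of the host. Of all genes by their brightest probe, 3.67% were higher by 1 or more. The group was looked up after the value of SNORA34 was seen, so that its count is no independent observation.

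IGFBP1, a secreted protein that binds insulin-like growth factors, had Cy5 intensities of 2467 after miR-144-3p and 889.6 after miR-144-5p over mock intensities of 1915 and 2088. Its strand difference was 1.49, or 2.80-fold, with a mock difference of -0.01. It was below mock on both arrays, by -0.46 and -1.95. The probe lies at chr7:45932966-45933025 (hg19).

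C3, the central component of complement, had 2 probes that moved alike. The brighter had Cy5 intensities of 579.6 and 289.6 over mock intensities of 294 and 356, a strand difference of 1.18, and the other had 0.92. The brighter C3 probe was at 0.20 after miR-144-3p and at -0.98 after miR-144-5p.

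Of the remaining named genes higher after miR-144-3p, ASB2, a substrate receptor of a ubiquitin ligase, had a strand difference of 1.42 with Cy5 intensities of 217 and 91.9. The peptide transporter gene SLC15A1 had 1.21 with 112 and 58.3. CYP19A1, the aromatase that makes oestrogens, had 1.25 on 1 probe and 0.80 on a second measured one. LOC101927787 had 1.69 on a dim probe, and 0.65 and 0.91 on its other probes, the former of which was brighter. The dim probes of LOC100506235 (1.34), LOC100147773 (1.23), CDRT1 (1.23) and ZNF624 (1.18) had no channel above 58.1 in intensity. All 12 of these genes were below mock on the miR-144-5p array, while on the miR-144-3p array they lay between -0.90 and 0.48, with IGFBP1, SNORA2B and CDRT1 (-0.62) clearly below mock there too.

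**Figure D2:**
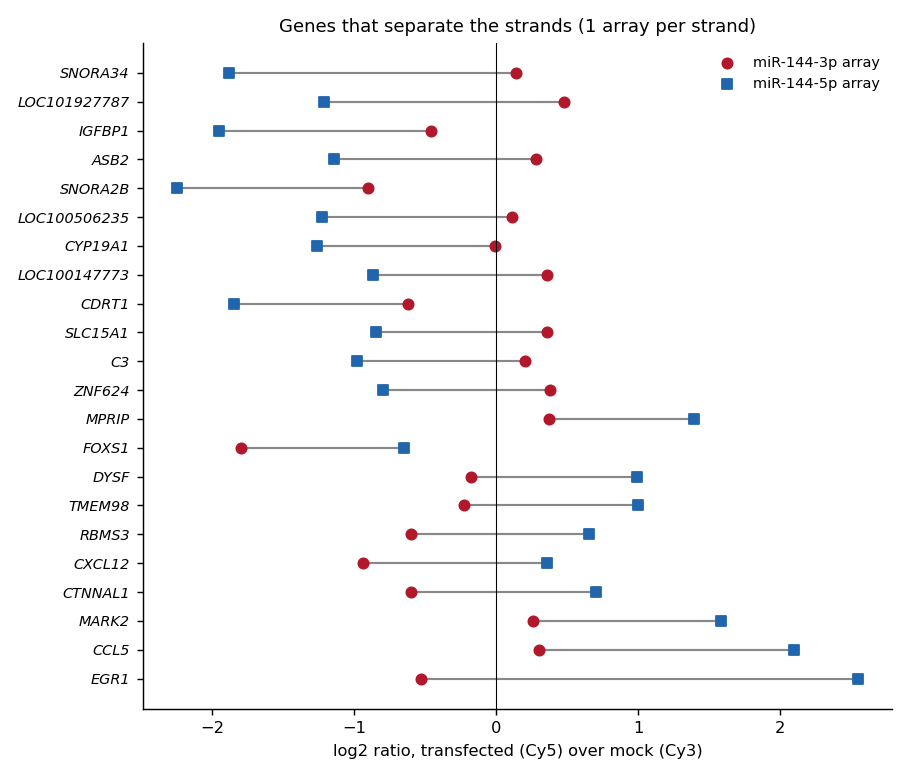
Log2 ratio of transfected over mock on the miR-144-3p array (circles) and the miR-144-5p array (squares) for the 22 named genes outside the raised area and without a purine run; a line joins the values of 1 probe, and there is 1 array per strand. In the upper 12 genes the square lies left of 0 and the circle nearer to it; in the lower 10 the square lies to the right of the circle, farthest for EGR1 (2.55 against -0.53).

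The same asymmetry was seen over more probes at a lower threshold, chosen after the values were seen. At 1.5-fold, without the raised and repeat probes, 198 probes (0.778%) were higher after miR-144-5p and 393 (1.55%) higher after miR-144-3p, and 142 and 274 of these lay beyond the 99% limit of the mock channel for their brightness. The imbalance arose with the condition on the Cy5 signals: by the strand difference alone 744 of these probes were lower and 799 higher, and in the mock channel alone 155 and 271. Of the 393, 331 (84.2%) were farther from mock after miR-144-5p, with median log2 ratios of -0.78 after miR-144-5p and 0.03 after miR-144-3p. Of the 198, 112 (56.6%) were farther from mock after miR-144-5p, with medians of 0.51 and -0.34. Across all 25435 probes measured in this way, 12.6% were past 1.5-fold from mock after miR-144-5p and 7.91% after miR-144-3p. The miR-144-5p array thus lay farther from mock as a whole, and both arrays have a mock channel of their own in these counts.

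Several bright genes with a function in growth and wound signalling were past 1.5-fold and are named here after their values were seen. EREG, an EGF receptor ligand, had Cy5 intensities of 3599 after miR-144-3p and 1658 after miR-144-5p over mock intensities of 1601 and 1605, a strand difference of 1.04. AREG, another such ligand, had 0.97 on its brighter probe and 1.03 on the other, with log2 ratios of -0.68 and -1.65 on the former. BTC had 0.70, whereas TGFA had 0.00, HBEGF -0.09 and EGF 0.32. The ligands that differed, EREG, AREG and BTC, lie in the same stretch of chromosome 4, and lnc-BTC-5 had 1.05 and 1.11 on its 2 probes. Its probe with 1.11 lies at chr4:75418378-75418437 (hg19), between the probes of AREG and BTC. Of 6 measured EGF family ligands, 3 were higher by 1.5-fold after miR-144-3p and 0 lower, and their median was 0.51. The list was drawn up after these values were seen, so that its count and median are no independent observation. Over all 19718 genes measured in 4 channels, by their brightest probe, 2.7% were lower and 3.25% higher by 1.5-fold.

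The disulfide isomerase AGR2 had a strand difference of 1.11 with Cy5 intensities of 2469 and 1226. IL1B, an inflammatory cytokine, had 1.21 with 129 and 73.3, and the growth differentiation factor GDF15 had 0.91 with 32904 and 21799. GDF15 had a mock difference of -0.27, where 99% of such bright probes were within 0.18. Its Cy5 signals alone differed by 0.65. ANXA10 had 0.99, the lipase inhibitor ANGPTL4 0.97, the protease inhibitor SERPINB2 0.93 and the chemokine CXCL1 0.83. In the tropomyosin gene TPM4, 1 probe had 1.14 and the other 0.00. Each of these genes, apart from CXCL1, was below mock after miR-144-5p.

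Higher after miR-144-5p at this threshold were the tight-junction gene CLDN11 at -0.92, with Cy5 intensities of 1589.8 and 3036, and CYR61, a matricellular protein now named CCN1, at -0.88 with 6214 and 12702. SOCS3, a feedback inhibitor of cytokine receptors, was at -0.76. CYR61 and AMOTL2, at -0.64, are targets of the coactivator YAP, and 3 of 19 measured YAP targets were lower after miR-144-3p by 1.5-fold and 0 higher, beside 2.7% and 3.25% of all genes, with a median of -0.26. The YAP list too was drawn up after the values were seen, so that its count is no independent observation. The third of these targets, GADD45B, is also among the immediate early genes below. CTGF, the best known YAP target, was at -0.25.

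Of 24 measured immediate early genes, 5 were lower after miR-144-3p by 1.5-fold and 0 higher, beside 2.7% and 3.25% of all genes, with a median of -0.29. EGR1, which prompted the list, is 1 of the 5, so that the count is no independent observation. JUN was at -0.71, the RNA-decay factor ZFP36 at -0.66, the phosphatase DUSP1 at -0.61 and GADD45B at -0.61. FOS had Cy5 intensities of 22.9 and 55.6 but a mock signal above background on 1 array only. ATF3 was at 0.28, MYC at -0.06 and IER3 at 0.04, so that the difference did not extend to the whole class. Of 15 heat shock genes, HSPA1A (-0.61) and HSPA1L (-0.66) were lower by 1.5-fold and 0 were higher, with a median of -0.06. HSPA1A and the near-identical HSPA1B, at -0.57, may share signal. The lists of EGF ligands, YAP targets, immediate early and heat shock genes were drawn up after the values were seen. None of their counts or medians is an independent observation.

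Genes with several probes showed where the probes of 1 gene moved alike, on the same RNA and arrays. Of 4517 genes with at least 2 measured probes, 5 had 2 or more probes lower by 1.5-fold and 24 had 2 or more higher. Genes whose probes disagreed, such as CTNNAL1, MARK2 and TPM4 above, are not in these counts. The lower ones were PRKCQ-AS1, SLC8A1, RHOB, TENM2 and MYLK, of which only MYLK, the myosin light chain kinase, was bright (-0.77 to -0.60 on 2 of 3 probes). Among the higher were C3, AREG, CXCL1 and CYP19A1, the spindle gene ASPM (0.68 and 0.75), DEPDC1 (0.82 and 0.95), the transcription factor ETV1 (0.70 to 0.83 on 3 of 4 probes), the anthrax toxin receptor ANTXR2 (0.61 to 0.79 on 3 of 4), the reductase AKR1B10 (0.61 and 0.64) and BOD1L1 (0.66 and 0.90 on 2 of 3).

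The largest positive differences did not belong to these genes. Of the 12 highest separating genes, 7 lay in the area of raised background of the miR-144-3p array: DPY19L3 (3.29), MIR4500HG (2.75), MCM9 (2.07), SNORD6 (1.98), ENTPD8 (1.97), TAF1A (1.88) and SLC27A2 (1.70). DPY19L3 had Cy5 intensities of 154 and 31.0, with a local Cy5 background of 152 at its spot on the miR-144-3p array, and its other probe had -0.46. Over the 150 kept probes of the area the median strand difference was 1.88, and 90 were higher by 1 or more and 0 lower. Over the 73 of them measured in 4 channels, as separating probes are, the median was 0.32, and 17 were higher by 1 or more. With normexp correction at an offset of 50 and loess the median over the 150 was -0.06, with 0 higher by 1 or more. Without background correction it was 0.62, with 55 higher. The normexp setting also shrank the count of higher probes over the whole array, from 1219 to 19. SLC2A3, a glucose transporter gene, had its value of 2.41 from the same area, and its probe elsewhere had -0.08.

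**Figure D3:**
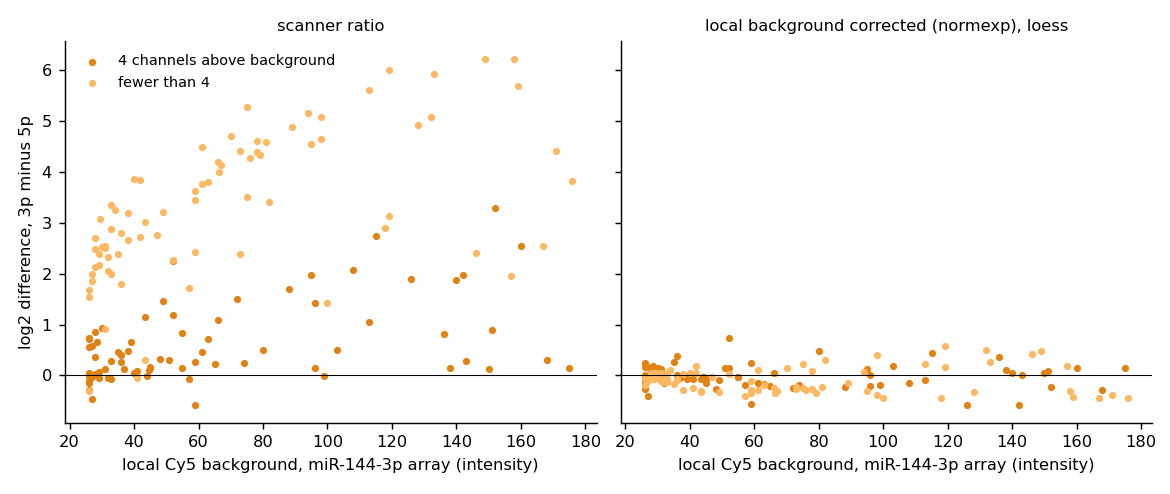
Strand difference (log2) against the local Cy5 background on the miR-144-3p array for the 150 kept probes in the raised area, by the scanner ratio (left) and after normexp correction and loess (right); dark points had 4 channels well above background. On the left the differences climb with the background to values above 6, and on the right they lie around 0 (median -0.06).

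The other group was probes with an alternating run of G and A. GPR182 (2.34, now ACKR5), GPR179 (1.78), HMBOX1 (1.74) and LINC01564 (1.72) were among the 12 highest genes and held runs of 10 to 12 bases. HMBOX1 had 5 kept probes, and its probes without such a run were at -0.14, 0.11, 0.22 and 0.90. The following 30-base stretches of bright probes are shown because the run is what they share, here in capitals. They belong to long non-coding RNAs from 3 chromosomes, at hg19 probe positions chr13:108440727-108440786, chr2:65129721-65129780, chr6:22110999-22111058 and chr2:135625090-135625149 in the order of the lines.
FAM155A-IT1: gaagaAGAGAGAGAGAGAGAGAGAtgatgt
LOC400958: tacttcAGAGAGAGAGAGAGAGAGtattga
CASC15: tagctgaAGAGAGAGAGAGAGAagagagaa
CCNT2-AS1: aagcaatGAGAGAGAGAGAGAGggttactt
FAM155A-IT1 had Cy5 intensities of 1776 after miR-144-3p and 685 after miR-144-5p over mock intensities of 495 and 498, a strand difference of 1.29. The differences of LOC400958, CASC15 and CCNT2-AS1 were 1.36, 1.37 and 1.43, within a narrow range although the genes are unrelated. Their log2 ratios after miR-144-3p were also close together, at 1.07, 1.05 and 1.07.

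The difference grew with the length of the run. Outside the raised area, the median strand difference of probes measured in 4 channels was -0.01 for runs up to 5 bases (24706 probes), 0.00 for 6 or 7 (729), 0.03 for 8 or 9 (91), 0.95 for 10 or 11 (15) and 1.37 for 12 or more (17). In the last class 12 of 17 were higher by 1 or more. Of all probes on the array, 0.438% held a run of 8 or more. Probes with the complementary run, of C and T, of 10 or more bases had a median of -0.10 (15 probes), with 0 higher by 1 or more. The miR-144-3p array stood apart from every other array of the series: its median log2 ratio over probes with runs of 10 or more was 1.06, with 18 of 34 at 1 or more, against medians from -0.32 to 0.21 and 0 probes at 1 or more on each of the other 7 arrays. Whether the signal came from RNA with such a repeat, from the oligonucleotide or from labelling was not tested.

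**Figure D4:**
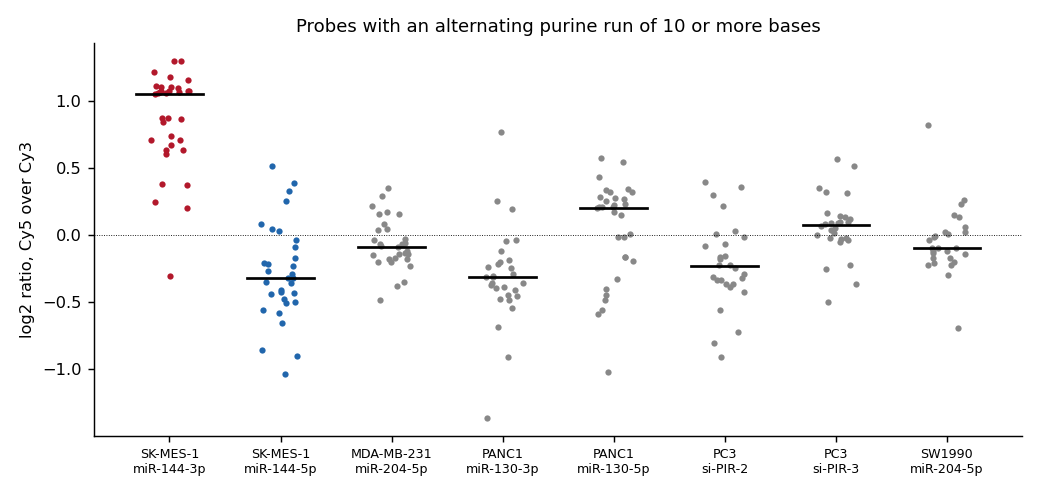
Log2 ratio of Cy5 over Cy3 for probes with an alternating purine run of 10 or more bases and both dyes well above background, on each of the 8 arrays; each point is a probe and bars are medians (27 to 34 probes an array, horizontal scatter for display). The median of the miR-144-3p array is 1.06, and those of the other 7 arrays lie between -0.32 and 0.21.

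By the strand difference, no reported target of either strand was past 1.5-fold in the direction of its own strand, and none had a separating probe. Of 22 genes reported as targets of miR-144-3p, 21 were kept, with a median strand difference of 0.11 against -0.01 over all genes. A fall specific to miR-144-3p would give negative values, and the lowest was that of the receptor NOTCH1 at -0.21. The histone methyltransferase EZH2 was at -0.08, the kinase MTOR at 0.11, the receptor MET at 0.27 and the transcriptional repressor ZEB1 at 0.23. MET had Cy5 intensities of 6895 and 6327 over mock intensities of 3599.5 and 4046, so that this was not a matter of dim signal. FN1, the matrix protein fibronectin, was below mock to the same degree on both arrays, at -1.30 and -1.29. PTGS2, the inducible cyclooxygenase, was at 0.72 on a dim probe. ZEB2 had 1.01, but its Cy5 and mock signals were well above background on the miR-144-5p array only. Its mock difference was -2.77, and its Cy5 signals alone differed by -1.76, so that the sign of its difference is uncertain.

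Of 5 reported targets of miR-144-5p all were kept, with a median of -0.04. CCNE2, the cyclin E2 that drives entry into S phase, was highest at 0.58, with Cy5 intensities of 177 and 124 over mock intensities of 109 and 114, where 99% of such probes were within 0.33 in mock. Its log2 ratio was 0.07 after miR-144-3p and -0.51 after miR-144-5p. These values are those of the brightest probe of CCNE2, and the mean strand difference over its kept probes was 0.17. CCNE1, the other cyclin E, was at 0.15 with log2 ratios of -0.21 and -0.36, and CDC25A, PKMYT1 and SDC3 were at -0.22, -0.11 and -0.04.

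Seed matches in the probes went with small differences. Targets carry the reverse complement of the seed, and the 60-base probes show only that part of each transcript. The match ATACTGT of miR-144-3p was found in 152 of 32515 kept probes outside the raised and repeat groups (0.467%), with a median strand difference of 0.010, against -0.009 without it. The match TGATATC of miR-144-5p was in 74 probes (0.228%), with a median of 0.070. Past 1.5-fold in the direction expected of a target were 5.92% of the former, against 7.76% without the match, and 12.2% of the latter, against 8.07%. By normexp at an offset of 50 these shares were 0% against 0.0711%, and 0% against 0.176%. On the opposite strand, ACAGTAT and GATATCA had medians of 0.085 and 0.069 by the scanner ratio, for motifs of the same GC content. Of the probes with these, 4.69% and 8.79% were lower by 1.5-fold, and 11.7% and 7.69% higher. Sites elsewhere in the transcripts were not analysed here.

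Across 20 lists of pathways and cell markers the medians over kept genes lay between -0.16 and 0.23, apart from the 4 kept adenocarcinoma markers at -0.47, beside -0.01 over all genes. Of the 350 list genes that were kept, 2 were lower and 5 higher by 1 or more, where 3.2% and 3.67% of all 25102 genes were. Of 332 list genes measured in 4 channels, 6 were lower and 11 higher by 1.5-fold, beside 2.7% and 3.25% of all genes so measured. The largest median among the pathways was that of stress genes of the endoplasmic reticulum and ATF4, at 0.23, whose extremes were PPP1R15A at -0.21 and SDF2L1 at 0.60. The lowest was that of the G1/S genes at -0.16, from the cyclin CCND3 at -0.66 to CCNE2. Replication and mitosis genes had a median of 0.08, from MCM5 at -0.38 to the kinetochore gene CENPF at 0.72, which was bright, with Cy5 intensities of 7662 and 4991.

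In the cytokine and NF-kB list, CCL5 was lowest at -1.80, IL1B was the highest member measured in 4 channels at 1.21, and CXCL8 was highest at 2.51. CXCL8, the neutrophil chemokine interleukin-8, had Cy5 intensities of 36.1 and 20.3 and a mock signal at background on both arrays, so that its Cy5 signal was at least 1.2-fold higher after miR-144-3p. Against mock, NFKBIA was at 0.97 after miR-144-3p and 1.11 after miR-144-5p, BIRC3 at 1.63 and 1.38 and CXCL2 at 1.27 and 1.29. CXCL1 was at 1.87 and 1.04, whereas BCL3 was at -0.16 and 0.27, IL11 at -0.15 and 0.06, CCL20 at -0.21 and 0.49 and PTGS2 at -0.04 and -0.76, so that the list did not move as 1 group. Interferon-stimulated genes had a median of -0.10, from HERC5 at -0.64 to BST2 at 0.19.

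Matrix and EMT genes had a median of 0.11, and the collagenase MMP1 was highest at 1.08, on a dim probe. SPARC was lowest at -1.76, with Cy5 above background after miR-144-5p only, which leaves at least 1.06-fold. TGF-beta response genes ran from CYR61 at -0.88 to LTBP2 at 0.76 (median 0.01), and p53 targets from GADD45A at -0.56 to GDF15 at 0.91 (median 0.00). NRF2 targets ran from HMOX1 at -0.40 to AKR1B10 at 0.64 (median 0.09), and cholesterol synthesis genes from INSIG1 at -0.29 to SC5D at 0.96 (median 0.11), SC5D with a mock difference of -0.51. Genes of RNA silencing ran from TNRC6B at -0.26 to HMGA2 at 0.47 (median 0.01), hypoxia genes from PFKFB4 at -0.32 to SLC2A3 (median 0.03), and replication histones from HIST1H1B at -0.55 to HIST2H2BE at 0.40 (median -0.12).

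Squamous markers had a median of 0.00, from KRT14 at -0.49 to KRT17 at 0.34. The 4 kept adenocarcinoma markers ran from SFTPC at -0.87 to KRT7 at 0.27, with a median of -0.47 that was 0.04 over the 2 measured in 4 channels. Fibroblast markers ran from PDGFRB at -0.52 to LUM at 0.86 (median -0.10, and -0.23 over the 6 measured in 4 channels). Endothelial markers ran from TEK at -0.32 to VWF at 0.50 (median 0.23) and leukocyte markers from PTPRC at -0.14 to CD14 at 0.38 (median 0.10). SFTPC, LUM, TEK and VWF were not well above background in all channels. Both arrays hold RNA of 1 cultured line, so that these values do not measure a mix of cell types.

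**Figure D5:**
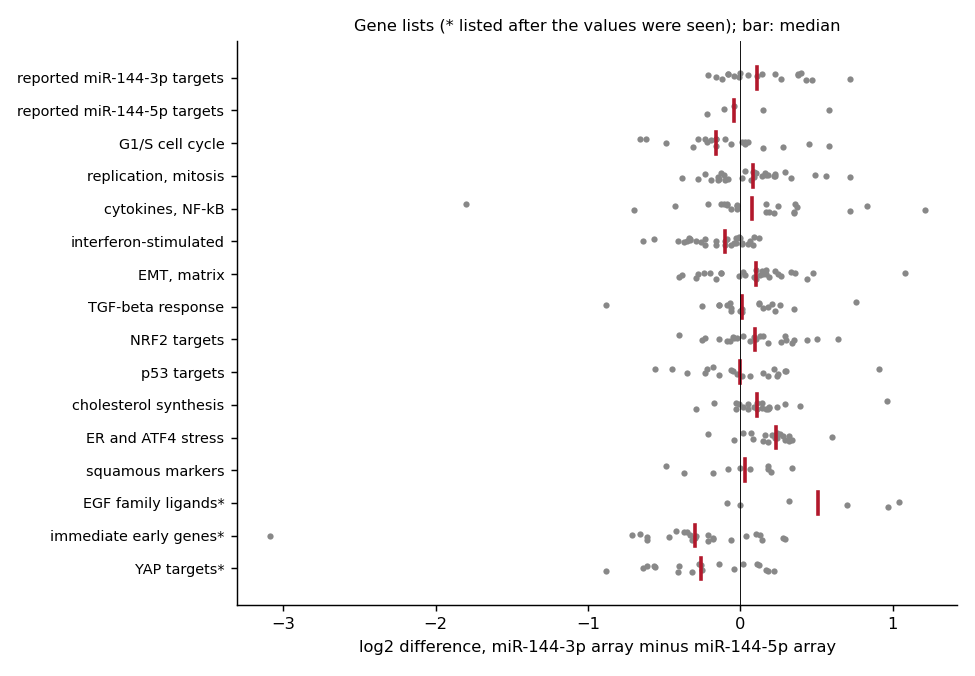
Strand difference (log2) of the members measured in 4 channels of 16 gene lists, 1 point per gene by its brightest probe, with the list's median as a bar and vertical scatter for display; lists with a star were made after the values were seen. Medians lie between -0.29 (immediate early genes) and 0.51 (EGF family ligands), and EGR1 at -3.09 and CCL5 at -1.80 are the outermost points.

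Probes with a Cy5 signal above background on 1 array only numbered 1534 for miR-144-3p and 1053 for miR-144-5p, of which 1445 and 1046 remained without the raised and repeat probes. Bounds were set for these from Cy5 signals normalized between the arrays, which carry the normexp offset of 50. Each bound was the bright signal over the lowest signal that was still well above background or the dim probe's own. By these bounds, 0 of either group reached 2-fold. The offset shrinks the ratios of dim signals. For LINC00624, Cy5 intensities of 18.3 after miR-144-3p and 63 after miR-144-5p stood at 5.83 and 6.55 in normalized log2. The count of 0 thus cannot show that no such probe differed by 2-fold. The largest bounds were DNAH17, NWD2 and LOC100130705 with at least 1.39-, 1.39- and 1.37-fold higher after miR-144-3p, and LINC00624, OR9A4 and LGALS4 with at least 1.64-, 1.61- and 1.59-fold higher after miR-144-5p. In each of these 6, Cy3 too was above its background on that array alone. DNAH17, an axonemal dynein gene, had mock intensities of 38.9 and 21.2 beside Cy5 intensities of 46.5 and 17.9, and a strand difference of -0.17 by the scanner ratio. By the scanner ratio LOC100130705 had a strand difference of 1.43, and the others lay between -0.17 and 0.14. The spots were thus dim in both dyes on one array. None of the 6 could be called separating, because that rule asks for all 4 channels well above background.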

How the data were processed

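Gene expression was measured on Agilent 2-colour arrays. The authors deposited, for each array, spot intensity values of Cy3 and Cy5 on a linear scale and a log10 ratio, Cy5 to Cy3, made by Agilent Feature Extraction 11.5.1.1 with its background correction and LOWESS dye normalization, per the file headers. In the deposited value table the log10 ratios were identical (largest difference 0). These were turned to log2. All columns of values belonged to a sample of the series. Controls were dropped, as were outlier spots (157 on the miR-144-3p and 149 on the miR-144-5p array, of 60901), and replicate spots were averaged. The depth of arrays is unknown, and their number, 1 per strand, limits the precision. No test was run.

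Members, lists and rules were chosen with earlier results of these data known. The named genes were the 12 lowest and 12 highest genes among separating probes with a symbol known to RefSeq (10 existed on the low side), up to 3 genes per direction with Cy5 above background on 1 array only, and the extremes of each list. The 12 highest were also taken without raised and repeat probes. Symbols are those of the array. Of the kept probes, 24363 matched a RefSeq gene by accession, symbol or synonym. In lists a gene was given by its brightest probe, and a named gene by its brightest separating probe. Normexp correction, loess and the normalization between arrays used limma 3.58.1 in R 4.3.3, with offsets of 50 and 1 as alternatives. Counting was done in Python 3.11.15 and tested on simulated data. Coordinates are those of the arrays (hg19).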

Additional observations from a re-analysis of the deposited data

Results flagged for a closer look

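A signal appeared in data that the ratios do not use: on the miR-144-3p array 160 spots had a local Cy5 background over 1.5 times the array's median, against 0 on the miR-144-5p array. The 7 highest-ranking genes of that area and their values are given above.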

How the results depend on the processing

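The counts of probes past 2-fold depended on the processing. Instead of 1061 lower and 1219 higher, there were 5 and 19 with normexp at an offset of 50, 152 and 124 at an offset of 1, 10 and 81 without background correction, 502 and 762 from the Cy5 signals alone, 631 and 630 with Cy5 above background on both arrays, 96 and 140 with both dyes above it on both, and 3387 and 2758 with no filter. Thresholds of 1.5 and 2 in log2 gave 392 and 537, and 152 and 238, and a threshold of 1.5-fold gave 2527 and 2796. Median centring, the deposited table, marked spots kept, genes by brightest probe, and raised or repeat probes left out kept both counts within 1.5 times. Separating probes numbered 198 and 449 at 1.5-fold in place of 12 and 76, 12 and 37 without raised and repeat probes, and 198 and 393 with both changes. The last-named exclusions and the 1.5-fold threshold were chosen after seeing the data.

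Of 33 named genes, 4 reversed with normexp at an offset of 50, all in the raised area: DPY19L3 (-0.22), MCM9 (-0.15), SNORD6 (-0.59) and SLC27A2 (-0.22). Under that setting EGR1 was at -2.32, SNORA34 at 1.93, IGFBP1 at 1.43, CTNNAL1 at -1.22 and C3 at 1.03. Beside the 4 that reversed, 26 of the 33 moved by more than the spread of the mock channel, and 3 did not. CCL5 was at -0.58, DYSF at -0.47, TMEM98 at -0.24, RBMS3 at -0.22, CYP19A1 at 0.38, LOC101927787 at 0.36, and CXCL12, FOXS1 and CDRT1 at -0.12, -0.12 and 0.12, all dim and under 1.5-fold. So were MPRIP at -0.29, LOC100506235 at 0.32, LOC100147773 at 0.37 and ZNF624 at 0.21. The medians of the lists and of probes with a seed match lay between -0.12 and 0.22 by normexp. No replicate could be left out with 1 array per strand. No paired analysis was possible because each group holds 1 array.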
